A study of Homo sapiens with 24 samples.

Results

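The comparison described here is putrescine alone against no compound in differentiating N/TERT1 keratinocytes, an immortalized human epidermal line that stratifies and cornifies when calcium is raised. The 4 arrays labelled NT D6 PUT (putrescine cells) come from cultures kept in 1.2 mM calcium for 6 days and given 1 mM putrescine at day 3. The 4 arrays labelled NT D6 (day 6 cells) come from cultures kept in the same calcium for the same time with nothing added. Another 4 arrays, given 1 mM spermidine/spermine at day 3 and called SDSM cells after their label, serve below to set putrescine beside the polyamines made from it. Whether 1 mM refers to the mixture or to the single compounds is not stated in the labels. All these cultures are of 1 cell line, in serum-free medium with pituitary extract and EGF. These are 8 of the 24 arrays of the series, and 12 with SDSM cells. Of the 47304 probes on the array, 11682 had a detection p-value under 0.01 on at least 4 of the 8 putrescine and day 6 arrays and were tested, standing for 7681 named genes. The labels call the arrays biological replicates and do not say whether the 4 came from separate cultures, so the tests measure only the spread between them.

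Putrescine is the smallest of the polyamines, positively charged metabolites that bind RNA, DNA and membranes. Ornithine decarboxylase (ODC1) makes it from ornithine, and the synthases SRM and SMS then add aminopropyl groups to give spermidine and spermine. Those groups come from S-adenosylmethionine through the decarboxylase AMD1. Cells hold the pool within limits: antizymes direct ornithine decarboxylase to degradation and slow uptake, antizyme inhibitors such as AZIN1 counter them, and the acetyltransferase SAT1 marks polyamines for export or breakdown. In epidermis the pool is turned over as keratinocytes leave the basal layer, where they divide, pass through the spinous layer and end as cornified cells cross-linked inside a protein envelope.

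All 6 keratinocyte markers on the array were detected. PERP, a desmosome protein, had levels of 15.09, 15.14, 14.88 and 15.01 in putrescine cells, against 15.36, 15.14, 14.92 and 15.06 in day 6 cells, and basal keratin KRT14 had 13.59, 13.78, 13.64 and 13.51 in putrescine cells, against 14.54, 13.50, 13.71 and 13.44 in day 6 cells. Levels are normalized log2 intensities throughout, and each probe is compared only with itself. None of the 6 passed the test, with a median difference of -0.18. Neither gene's arrays separated the groups. On the arrays, 10869 to 12040 probes were detected in putrescine cells and 11019 to 12396 in day 6 cells. Arrays correlated with one another at r = 0.985 to 0.990 within putrescine cells and at 0.958 to 0.986 within day 6 cells, where replicates 2 and 4 were the closest pair. The median SD of a probe was 0.186 in putrescine cells and 0.301 in day 6 cells.

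Putrescine was followed by changes in both directions across the transcriptome. In limma's moderated test with Benjamini-Hochberg adjustment over all 11682 probes, 1295 probes were higher (11.1%) and 940 lower (8.05%) in putrescine cells at an adjusted p under 0.05. Of these, 276 were at least 2-fold higher and 171 at least 2-fold lower. The arrays of the groups did not overlap for 1066 of the higher and 697 of the lower probes, and 20.6% of all tested probes showed no overlap. Of the higher probes 75 were undetected on all 4 day 6 arrays, and of the lower ones 30 on all 4 putrescine arrays. These entered the test only through the group where they were high, so their adjusted p and lack of overlap are not independent of the filter. The median difference over all probes was 0.034. When each array was instead scaled to its 75th percentile, 639 probes were higher and 1536 lower, 29.4% of calls being higher against 57.9% above, and the median moved to -0.112. Without day 6 replicate 1 the counts were 850 higher and 622 lower, and without putrescine replicate 1 they were 842 and 530. Without putrescine replicate 4 they were 949 and 581, and with day 6 replicates 2 and 4 alone 700 and 567. The plot of all probes marks the genes at the ends of this range.

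**Figure D1:**
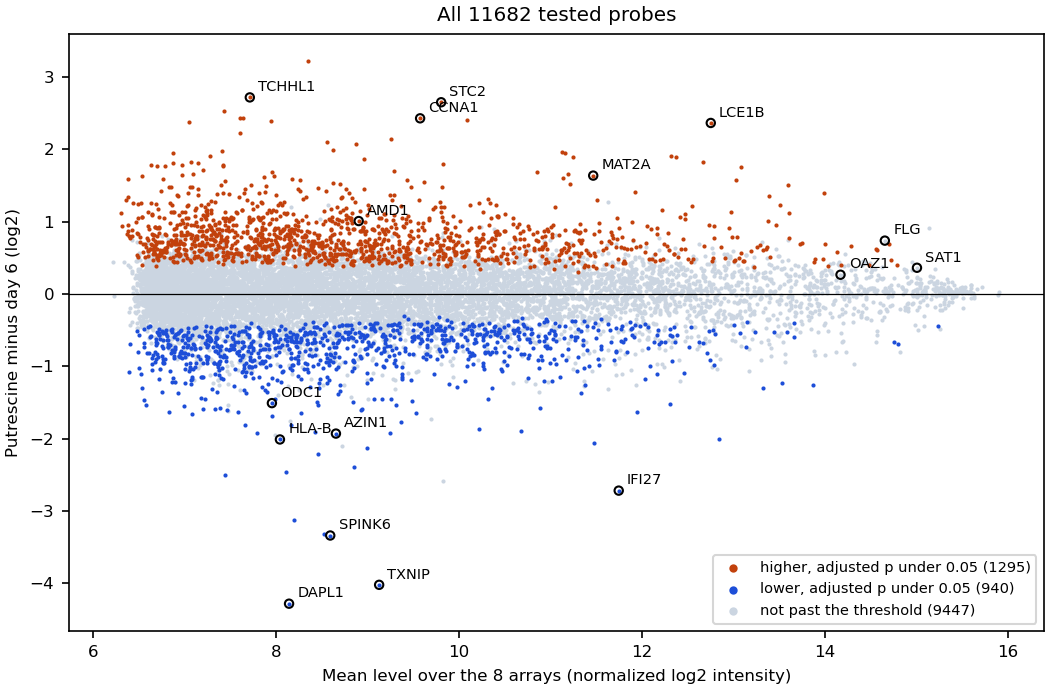
Each point is a tested probe, with its mean level over the 8 arrays on the x axis and putrescine minus day 6 on the y axis, both in log2 units. Orange points were higher and blue points lower in putrescine cells at an adjusted p under 0.05. TXNIP and DAPL1 lie more than 4 units below 0, and ODC1 and AZIN1 lie among the lower probes. SAT1 and OAZ1 sit among the brightest probes, close to 0.

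Among polyamine genes, those that raise ornithine decarboxylase activity were lower in putrescine cells. ODC1, the enzyme that makes putrescine, had levels of 6.87, 7.30, 7.43 and 7.19 in putrescine cells, 8.44, 8.57, 8.52 and 8.23 in SDSM cells and 8.55, 8.59, 8.98 and 8.70 in day 6 cells. All 4 putrescine arrays lay below every day 6 and SDSM array, and ODC1 fell 2.85-fold against day 6 cells (log2 difference -1.51 ± 0.19 SE, adjusted p = 1.13e-05). AZIN1, which binds antizyme and so frees ornithine decarboxylase, had levels of 7.62, 8.002, 7.49 and 7.64 in putrescine cells, 8.69, 8.58, 8.80 and 8.83 in SDSM cells and 9.86, 9.37, 9.73 and 9.52 in day 6 cells. The 3 groups formed 3 separate ranges, and AZIN1 fell 3.81-fold against day 6 cells (-1.93 ± 0.14, adjusted p = 9.39e-09). AMD1, which supplies the aminopropyl donor, moved the other way, with levels of 9.48, 9.35, 9.52 and 9.27 in putrescine cells, 8.51, 8.22, 8.38 and 8.74 in SDSM cells and 9.06, 7.62, 8.29 and 8.62 in day 6 cells. Its 4 putrescine arrays were the highest of the 12, while day 6 arrays spread widely, and AMD1 rose by 1.01 ± 0.32, adjusted p = 0.0307. AMD1 missed the threshold without putrescine replicate 1, 2, 3 or 4 or day 6 replicate 2 or 3 (0.75 to 1.05, adjusted p = 0.0517 to 0.105). Under 75th percentile scaling it missed the threshold too (adjusted p = 0.0607).

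The remaining members of the pathway differed less. SAT1, the acetyltransferase that starts polyamine breakdown, had levels of 15.37, 15.20, 15.06 and 15.13 in putrescine cells, against 14.81, 14.83, 14.89 and 14.78 in day 6 cells. All putrescine arrays were the higher ones, but the difference of 0.36 ± 0.13 stood just outside the threshold (adjusted p = 0.0512), and inside it with a trended, robust variance estimate (adjusted p = 0.0269). OAZ1, the main antizyme, had 14.22, 14.33, 14.32 and 14.36 in putrescine cells, against 13.86, 14.04, 14.10 and 14.16 in day 6 cells, again without overlap, at 0.26 ± 0.13, adjusted p = 0.143. SRM (-0.06 ± 0.17), SMS (0.10 ± 0.22), OAZ2 (-0.05 ± 0.38) and the spermine oxidase SMOX (-0.13 ± 0.21) had overlapping arrays and did not pass. SMOX was detected on 2 of 4 arrays and OAZ2 on 3 of 4 arrays in each group. ARG1, which makes ornithine from arginine, was at 0.55 ± 0.26, adjusted p = 0.146. PAOX, another oxidase, did not reach the detection filter. Over the list of synthesis genes 1 of 7 tested members rose and 1 fell (median 0.34), of catabolic genes 0 of 6 tested members rose and 1 fell (median -0.15), and of antizymes and their inhibitors 0 of 3 tested members rose and 1 fell (median -0.05). Over all genes, each by its brightest probe, 12% rose and 9.07% fell. The catabolic member that fell was MAOA, an amine oxidase of the outer mitochondrial membrane, at 9.85, 10.12, 9.90 and 9.78 in putrescine cells, against 10.31, 10.89, 10.70 and 10.63 in day 6 cells (-0.72 ± 0.16, adjusted p = 0.00319), with no overlap.

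**Figure D2:**
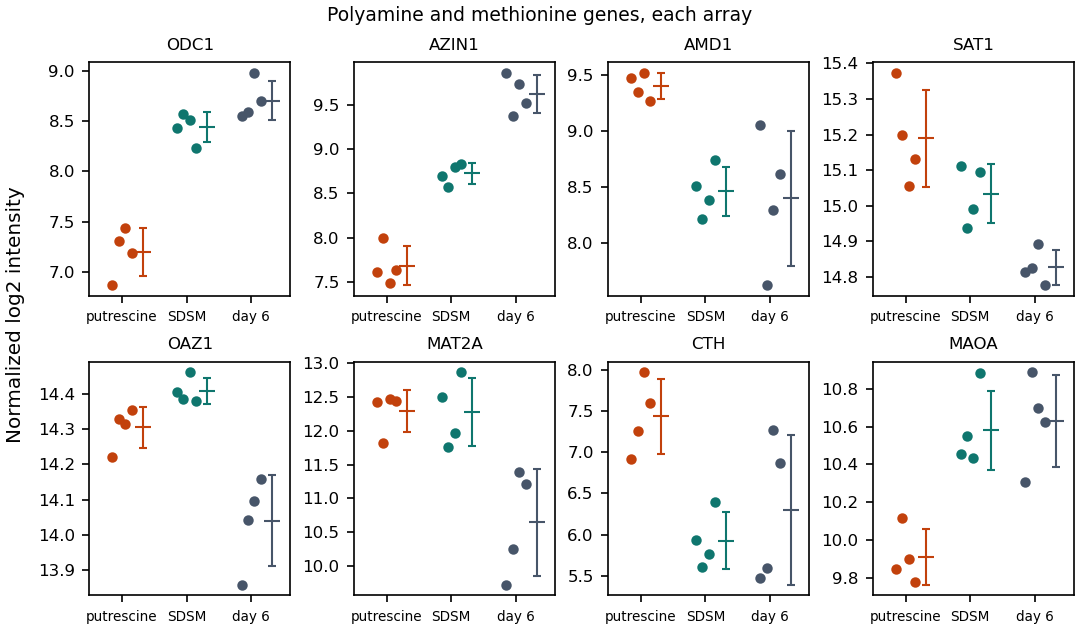
Points are single arrays (normalized log2 intensity, y axis) of putrescine, SDSM and day 6 cells, with the mean and SD of the 4 arrays beside them; each panel has its own y range. ODC1, AZIN1 and MAOA are lowest in putrescine cells, AMD1 is highest there, and MAT2A is raised in both polyamine groups.

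One annotated promoter window of ODC1 is shown because its transcript fell while MYC, whose product binds E-boxes, was higher; the motifs searched here and below were chosen after the values were seen. The window runs from 250 bases before to 50 bases after a transcription start in RefSeq (GRCh38.p14), and capitals mark the letters CACGTG, the core E-box, which reads the same on both strands.
ODC1, chr2:10447963-10448262, minus strand: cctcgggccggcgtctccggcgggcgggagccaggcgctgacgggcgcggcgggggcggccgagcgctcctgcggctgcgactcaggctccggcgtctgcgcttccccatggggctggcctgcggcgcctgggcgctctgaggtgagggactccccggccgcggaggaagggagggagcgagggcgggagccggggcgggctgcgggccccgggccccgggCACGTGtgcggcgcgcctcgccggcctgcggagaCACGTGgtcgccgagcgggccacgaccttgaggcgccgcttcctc
The 2 matches begin 29 bases before and 5 bases after the start. Of all 35116 promoter windows 7.26% hold CACGTG, and neither the other ODC1 window nor those of AMD1 do. MYC had levels of 11.75, 11.81, 11.60 and 11.59 in putrescine cells, against 10.73, 10.61, 11.09 and 10.86 in day 6 cells and rose by 0.87 ± 0.20, adjusted p = 0.00356, with no overlap. A match of letters is a description of the sequence and shows no binding.

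Genes of polyamine uptake and of eIF5A, the factor that carries hypusine made from spermidine, were also listed. In the transport list 1 of 8 tested members rose and 3 fell (median 0.17), against 12% and 9.07% of all genes. ATP13A4, a P5B-type ATPase of the family that moves polyamines out of lysosomes, was detected on no putrescine array and on all day 6 arrays and was at least 1.39-fold lower (adjusted p = 0.000514). GPC1, a heparan sulfate proteoglycan, had 6.33, 7.13, 6.93 and 6.78 in putrescine cells (detected on 3 of 4 arrays), against 8.99, 6.97, 7.53 and 7.27 in day 6 cells and differed by -0.90 ± 0.31, adjusted p = 0.0457, with the highest value in day 6 replicate 1 and overlap elsewhere. The lysosomal exporter ATP13A2 differed by -0.55 ± 0.19, adjusted p = 0.0428, also with overlap, and was detected on 1 of 4 putrescine arrays. GPC1 missed the threshold without putrescine replicate 1, 3 or 4 or day 6 replicate 1 or 3 (-0.95 to -0.47, adjusted p = 0.0531 to 0.228), and ATP13A2 missed the threshold without putrescine replicate 1, 3 or 4 or day 6 replicate 1 or 2 (-0.56 to -0.37, adjusted p = 0.0737 to 0.191). The 3 transport genes that fell became 1 without putrescine replicate 1, 3 or 4 or day 6 replicate 1. None of the 3 tested hypusine genes passed. EIF5A itself was at -0.26 ± 0.18 and the hypusine-forming DHPS at 0.12 ± 0.16 by its brightest probe. Dimmer DHPS probes were at -0.28 ± 0.27 and -0.16 ± 0.14 and did not pass either.

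Methionine metabolism, which feeds the AMD1 step, rose at 4 of 14 tested genes and fell at none (median 0.20), against 12% and 9.07% of all genes. MAT2A, the S-adenosylmethionine synthetase of non-liver cells, had levels of 12.42, 11.82, 12.46 and 12.44 in putrescine cells, 12.50, 11.76, 11.96 and 12.86 in SDSM cells and 9.73, 10.26, 11.39 and 11.22 in day 6 cells. Both polyamine groups lay above all day 6 arrays, and MAT2A rose 3.11-fold in putrescine cells (1.63 ± 0.35, adjusted p = 0.00256). CBS and CTH, the pair of enzymes that pass homocysteine on to cysteine, rose by 1.08 ± 0.30, adjusted p = 0.0149, and by 1.14 ± 0.30, adjusted p = 0.0105. CBS had levels of 10.72, 10.14, 10.40 and 10.64 in putrescine cells, against 8.99, 9.63, 9.31 and 9.65 in day 6 cells, without overlap. CTH had levels of 6.92, 7.25, 7.97 and 7.60 in putrescine cells, against 5.47, 5.59, 7.27 and 6.87 in day 6 cells (detected on 2 of 4 arrays), and day 6 replicates 3 and 4 reached into the putrescine range or near it. MTRR, which reactivates methionine synthase, was at 0.71 ± 0.21, adjusted p = 0.0221. CBS missed the threshold without putrescine replicate 1 or day 6 replicate 1 (0.94 to 0.999, adjusted p = 0.0514 to 0.0582), and CTH missed the threshold without day 6 replicate 1 (0.86, adjusted p = 0.0551). MTRR missed the threshold without putrescine replicate 1 or 3 or day 6 replicate 1 (0.58 to 0.67, adjusted p = 0.0543 to 0.0919). The count of 4 was 2 without putrescine replicate 1 and 1 without day 6 replicate 1.

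The amino acid response governed by the transcription factor ATF4, which cells turn on when amino acids run short, contained some of the largest rises. In that list 13 of 35 tested members rose and 1 fell (median 0.51), against 12% and 9.07% of all genes. STC2, a secreted glycoprotein of the list, had levels of 11.01, 11.02, 11.26 and 11.23 in putrescine cells, 9.68, 8.80, 8.34 and 9.65 in SDSM cells and 6.99, 8.03, 9.31 and 9.60 in day 6 cells. The 4 putrescine arrays lay close together above all others, day 6 arrays spread over more than 2 units, and STC2 rose 6.27-fold (2.65 ± 0.45, adjusted p = 0.000256). SLC6A9, a glycine transporter, had 8.72, 8.52, 8.58 and 8.87 in putrescine cells, against 7.72, 7.29, 7.09 and 7.57 in day 6 cells and rose by 1.25 ± 0.24, adjusted p = 0.000901, with no overlap. VEGFA, the vascular growth factor, had 11.14, 10.97, 10.78 and 11.18 in putrescine cells, against 9.89, 9.45, 9.51 and 10.29 in day 6 cells and rose by 1.23 ± 0.28, adjusted p = 0.00409. Several of the other members that rose import or make amino acids: SLC7A5 (1.16 ± 0.24), SLC1A4 (1.09 ± 0.15, detected on 3 of 4 day 6 arrays), SLC38A2 (0.96 ± 0.22) and SLC1A5 (0.79 ± 0.20) are transporters, and PSPH, undetected on day 6 arrays and at least 1.21-fold higher (adjusted p = 9.52e-06), makes serine. ATF4 mRNA was higher by its brighter probe, at 0.62 ± 0.20, adjusted p = 0.0317, and not by another (0.036 ± 0.26, adjusted p = 0.939). ATF4 missed the threshold without putrescine replicate 1, 2, 3 or 4 or day 6 replicate 1 or 2 (0.39 to 0.66, adjusted p = 0.0533 to 0.158). ASNS (0.77 ± 0.40, adjusted p = 0.184), PSAT1 (1.26 ± 0.51, adjusted p = 0.0851) and CHAC1 (1.23 ± 0.44, adjusted p = 0.0528), long used as markers of this response, did not pass. In a fit of the putrescine and day 6 arrays alone ASNS (adjusted p = 0.0213) and PSAT1 (adjusted p = 0.00829) passed. CHAC1 passed without day 6 replicate 3 or 4 (adjusted p = 0.0184 and 0.0242), and PSAT1 without day 6 replicate 3 (adjusted p = 0.0487). ALDH18A1, which makes proline and ornithine precursors, was the member that fell (-0.72 ± 0.18, adjusted p = 0.00631). Under 75th percentile scaling 8 members rose. TGATG, any base and then AA, a core of the amino acid response element searched on both strands, was in a promoter window of 4 of the 11 raised members with a window in RefSeq (GRCh38.p14), of 7 of 18 other members and of 4.46% of all genes.

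The unfolded protein response, another stress program that also uses ATF4, had more falls than rises. Of its genes 1 of 18 tested members rose and 6 fell (median -0.27), against 12% and 9.07% of all genes. CRELD2, an endoplasmic reticulum protein, had levels of 8.60, 9.40, 8.72 and 8.50 in putrescine cells, against 9.82, 10.01, 9.94 and 10.03 in day 6 cells and fell by 1.14 ± 0.20, adjusted p = 0.000321, with no overlap. The disulfide isomerase PDIA6 (-1.14 ± 0.34, adjusted p = 0.0216, detected on 2 of 4 putrescine arrays) was lower, and the cochaperone DNAJC3 (0.87 ± 0.26, adjusted p = 0.022) was the member that rose. The chaperone HSPA5 was at -0.53 ± 0.28, adjusted p = 0.191. PDIA6 missed the threshold without putrescine replicate 1 or 4 or day 6 replicate 1 (-1.08 to -0.77, adjusted p = 0.0586 to 0.112), and DNAJC3 missed the threshold without putrescine replicate 1 or day 6 replicate 1 (0.52 to 0.70, adjusted p = 0.095 to 0.11).

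Genes for growth and glucose use rose in part. Among ribosome biogenesis genes 8 of 29 tested members rose and 0 fell (median 0.31), against 12% and 9.07% of all genes. NOP56, a core protein of the particles that methylate ribosomal RNA, had levels of 12.37, 12.18, 12.05 and 12.02 in putrescine cells, against 10.41, 10.82, 11.07 and 11.13 in day 6 cells. It rose 2.46-fold without overlap (1.30 ± 0.20, adjusted p = 0.000128), and its other 2 tested probes rose as well. LYAR (0.63 ± 0.13, adjusted p = 0.00184) and RRS1 (0.68 ± 0.20, adjusted p = 0.0217), both nucleolar, followed. RRS1 missed the threshold without putrescine replicate 4 or day 6 replicate 1 (0.59 to 0.60, adjusted p = 0.0735 to 0.0763). The count of 8 ranged from 4 to 13 when 1 array was left out, being 4 without putrescine replicate 4 or day 6 replicate 1, 5 without putrescine replicate 1, 2 or 3, and 13 without day 6 replicate 3. Of glycolysis and hypoxia genes 9 of 32 tested members rose and 2 fell (median 0.36). The neuronal-type glucose transporter SLC2A3 had 14.02, 13.82, 13.62 and 13.80 in putrescine cells, against 12.13, 12.17, 12.09 and 12.58 in day 6 cells and rose 2.98-fold (1.57 ± 0.18, adjusted p = 3.71e-06), with no overlap. ENO2, an enolase, was detected on all putrescine arrays and no day 6 array and was at least 1.43-fold higher (adjusted p = 0.00401). With day 6 replicates 2 and 4 alone, and likewise under 75th percentile scaling, 3 biogenesis and 5 glycolysis genes rose. The plot of gene lists sets these shares side by side.

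**Figure D3:**
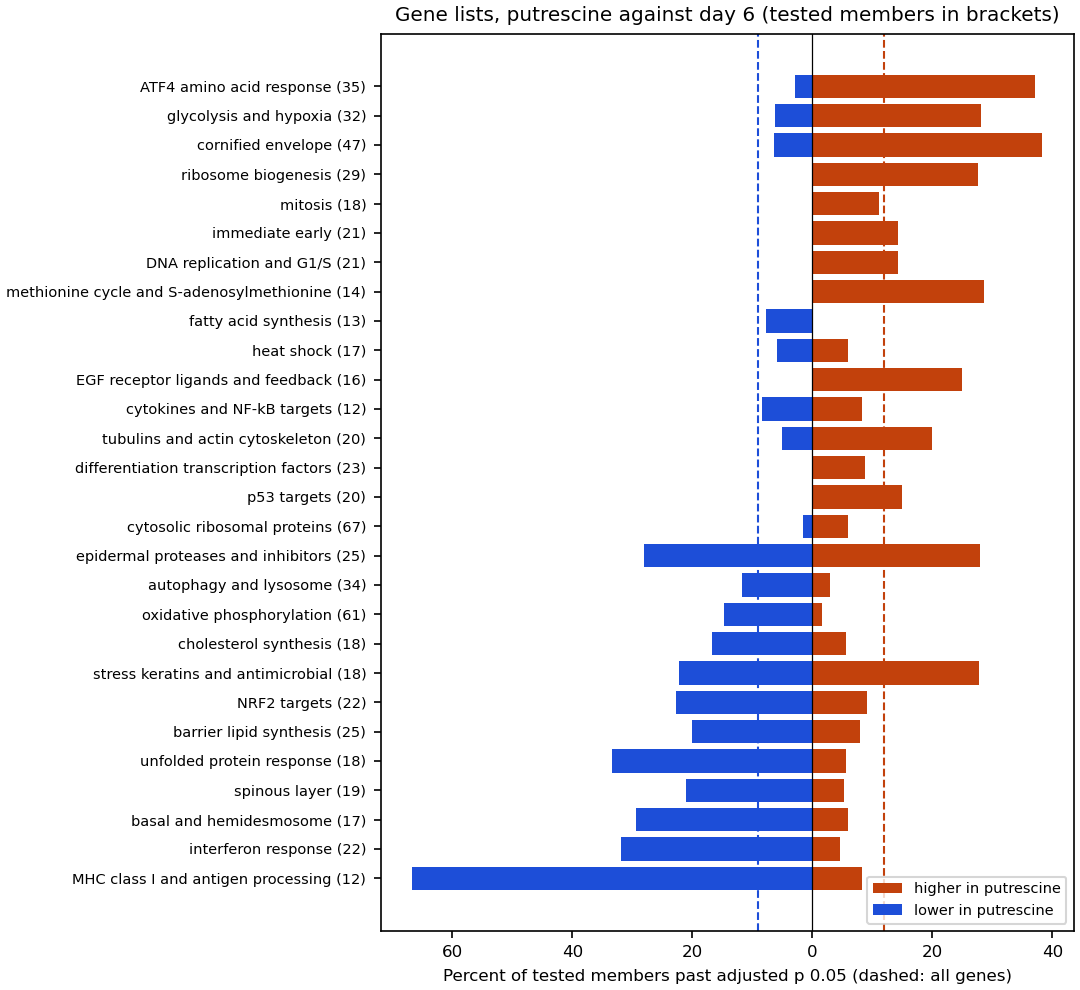
Bars give, for each list with 12 or more tested members (number in brackets), the percent of members higher (orange, right) and lower (blue, left) in putrescine cells at an adjusted p under 0.05; dashed lines mark 12% and 9.07%, the shares of all genes. Lists run by their median difference, with the ATF4 list at the top and MHC class I genes at the bottom.

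The cornified envelope, the protein shell of the outermost keratinocytes, was the differentiation program with the most rises. Of its genes 18 of 47 tested members rose and 3 fell (median 0.35), against 12% and 9.07% of all genes. Late cornified envelope genes of the LCE1 and LCE2 groups, which encode small cross-linked proteins, made up most of the rise. LCE1B had levels of 14.31, 13.27, 14.01 and 14.14 in putrescine cells, against 11.04, 11.57, 11.72 and 11.96 in day 6 cells. LCE1C had 12.40, 11.35, 12.30 and 12.44 in putrescine cells, against 10.44, 9.69, 10.25 and 10.36 in day 6 cells, and TCHHL1, a relative of trichohyalin, had 9.53, 8.52, 9.07 and 9.15 in putrescine cells, against 5.47, 6.48, 6.87 and 6.59 in day 6 cells (detected on 1 of 4 arrays). In all 3 genes every putrescine array exceeded every day 6 array. The differences were 2.36 ± 0.27, adjusted p = 2.83e-06 for LCE1B, 1.94 ± 0.25, adjusted p = 1.1e-05 for LCE1C and 2.72 ± 0.31, adjusted p = 3.17e-06 for TCHHL1. LCE2A, LCE2B, LCE2C, LCE2D, LCE1F and LCE6A rose by 1.39 to 1.91 without overlap, and LCE1A, LCE1D and LCE1E by 0.90 to 1.08 with overlap. A probe for 1 LCE gene may hybridize with near-identical relatives, so a single member is less certain than the family. LCE1A missed the threshold without putrescine replicate 1, 3 or 4 or day 6 replicate 2 (0.72 to 0.89, adjusted p = 0.0554 to 0.0878), and LCE1E missed the threshold without putrescine replicate 1 or 4 or day 6 replicate 2 (0.67 to 0.82, adjusted p = 0.0545 to 0.0696). The same uncertainty holds for the SPRR2, PSG, HLA, MT1 and KRT6 genes.

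Other envelope genes split. KPRP, a keratinocyte proline-rich protein, rose by 1.35 ± 0.21, adjusted p = 0.000116, and SPRR4, a small proline-rich protein, by 1.25 ± 0.22, adjusted p = 0.000404. In the LCE3 group, whose genes are known for induction in injured skin, LCE3C rose (0.85 ± 0.24, adjusted p = 0.0163), LCE3A was at 0.37 ± 0.30, adjusted p = 0.414, and LCE3D and LCE3E did not pass. Without day 6 replicate 4 LCE3A passed (0.77, adjusted p = 0.0368). Filaggrin FLG, the keratin-bundling protein, had levels of 15.07, 15.09, 14.81 and 15.14 in putrescine cells, against 14.48, 14.59, 13.59 and 14.50 in day 6 cells, and LORICRIN, the bulk protein of the envelope, had 15.55, 15.53, 15.65 and 15.66 in putrescine cells, against 14.44, 14.81, 14.56 and 14.95 in day 6 cells. Neither overlapped, yet neither passed (FLG 0.74 ± 0.31, adjusted p = 0.0936; LORICRIN 0.91 ± 0.36, adjusted p = 0.0795). In a fit of the putrescine and day 6 arrays alone both passed (adjusted p = 0.0451 for FLG and 0.00432 for LORICRIN). Involucrin IVL was at 0.26 ± 0.16, adjusted p = 0.251, and the envelope transglutaminase TGM1 at -0.51 ± 0.22, adjusted p = 0.108, which passed under 75th percentile scaling (-0.64, adjusted p = 0.0438). SPRR2B (-1.03 ± 0.18, adjusted p = 0.000416), repetin RPTN (-0.66 ± 0.22, adjusted p = 0.0395) and the transglutaminase TGM5 (-0.50 ± 0.17, adjusted p = 0.0486) fell. RPTN missed the threshold without putrescine replicate 1, 2 or 4 or day 6 replicate 2, 3 or 4 (-0.69 to -0.56, adjusted p = 0.0586 to 0.107), and TGM5 missed the threshold without putrescine replicate 1, 2, 3 or 4 or day 6 replicate 2, 3 or 4 (-0.54 to -0.37, adjusted p = 0.0605 to 0.147). LCE3C missed the threshold without putrescine replicate 1, 3 or 4 or day 6 replicate 1 (0.74 to 0.79, adjusted p = 0.0507 to 0.0645). A dimmer TGM5 probe fell by 0.89 ± 0.12, adjusted p = 3.59e-05. Of these counts, the 3 that fell became 1 without putrescine replicate 1, 2 or 4 or day 6 replicate 4. With day 6 replicates 2 and 4 alone 14 envelope genes rose and 3 fell, and under 75th percentile scaling 13 rose and 6 fell. In the table deposited as non-normalized 5 rose and 0 fell. There FLG, LCE1C, LCE2D, LCE6A and other envelope genes that were bright here sat at a floor of 40 on every array. Genes at the floor could not be called, so these counts are not comparable with the others.

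**Figure D4:**
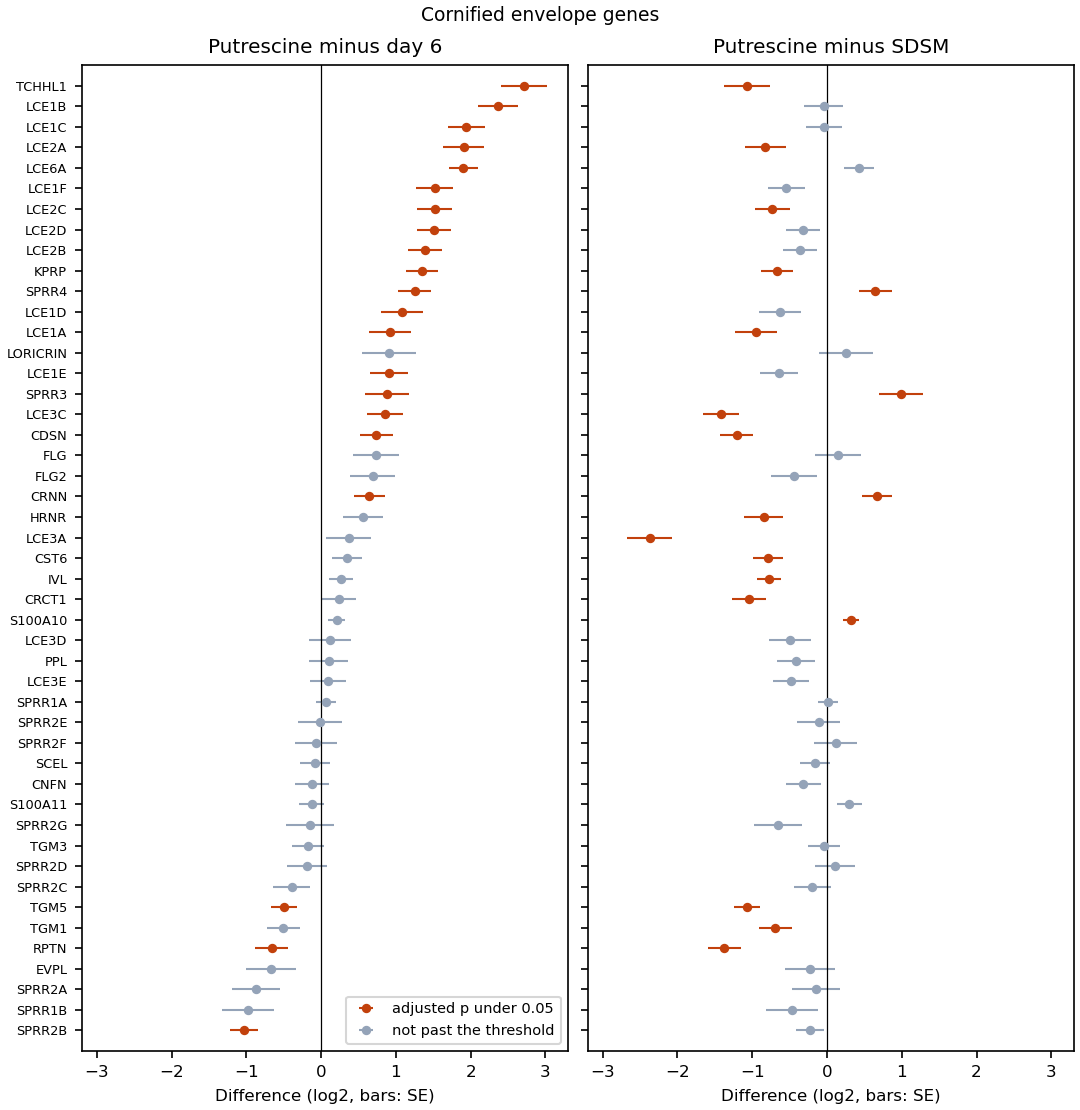
The 47 tested cornified envelope genes are ordered by putrescine minus day 6 (left), with putrescine minus SDSM beside them (right). Points are log2 differences and bars their SE, orange where the adjusted p is under 0.05. TCHHL1, LCE1B and LCE1C are at the top on the left, and most points on the right lie at or below 0.

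More spinous and basal genes fell than rose. In the spinous list 1 of 19 tested members rose and 4 fell (median -0.33), and in the basal and hemidesmosome list 1 of 17 tested members rose and 5 fell (median -0.37). The shares of all genes were 12% and 9.07%. DMKN, a secreted epidermal protein, had levels of 12.22, 12.29, 12.36 and 12.32 in putrescine cells, against 14.13, 12.91, 13.14 and 12.96 in day 6 cells, and CALML5, a calcium-binding protein, had 10.72, 10.64, 10.84 and 10.85 in putrescine cells, against 12.52, 11.18, 12.14 and 11.46 in day 6 cells. Their arrays did not overlap, and day 6 replicate 1 held the highest value of both. The differences were -0.99 ± 0.26, adjusted p = 0.0109 for DMKN, -1.07 ± 0.31, adjusted p = 0.019 for CALML5 and -0.92 ± 0.28, adjusted p = 0.0248 for plakophilin PKP1. Placental cadherin CDH3 had 8.61, 9.20, 8.84 and 8.86 in putrescine cells, against 10.55, 10.03, 9.99 and 9.73 in day 6 cells and fell by 1.20 ± 0.27, adjusted p = 0.00336. KRT15, a keratin of basal cells, had 7.76, 6.98, 7.38 and 7.60 in putrescine cells, against 6.71, 6.22, 6.69 and 6.25 in day 6 cells (detected on 2 of 4 arrays) and rose by 0.96 ± 0.25, adjusted p = 0.00924. KRT1 (-0.84 ± 0.33, adjusted p = 0.0772) and KRT10 (-0.44 ± 0.22, adjusted p = 0.154), the suprabasal keratin pair, and KRT5 (-0.77 ± 0.34, adjusted p = 0.108) did not pass. Without day 6 replicate 3 KRT1 (adjusted p = 0.041) and KRT10 (adjusted p = 0.0265) passed, and KRT10 did so under 75th percentile scaling (adjusted p = 0.0455). DMKN missed the threshold without day 6 replicate 1 (-0.71, adjusted p = 0.0576), and CALML5 missed the threshold without day 6 replicate 1 (-0.83, adjusted p = 0.0883). PKP1 missed the threshold without putrescine replicate 1, 3 or 4 or day 6 replicate 1 or 2 (-0.91 to -0.72, adjusted p = 0.0505 to 0.109). Of the other 2 DMKN probes 1 passed (adjusted p = 0.00598) and 1 did not (0.0681). The 4 spinous genes that fell became 0 without day 6 replicate 1 and 2 without putrescine replicate 1 or day 6 replicate 2, and the 5 basal ones 2 to 3 without putrescine replicate 1 or 3 or day 6 replicate 4.

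Epidermal proteases and their inhibitors, among them those that govern the shedding of cornified cells, changed in both directions. Of proteases and inhibitors 7 of 25 tested members rose and 7 fell (median -0.08), against 12% and 9.07% of all genes. SPINK6, an inhibitor of kallikrein proteases, had levels of 6.65, 7.32, 6.77 and 6.95 in putrescine cells (detected on 3 of 4 arrays), 9.45, 10.20, 10.07 and 9.87 in SDSM cells and 10.29, 10.38, 10.09 and 10.28 in day 6 cells. Putrescine arrays stood apart below both other groups, and SPINK6 fell 10.1-fold (-3.34 ± 0.34, adjusted p = 8.25e-07). Its relative SPINK7 had 7.76, 7.98, 7.51 and 7.34 in putrescine cells, 9.85, 10.001, 10.38 and 9.88 in SDSM cells and 9.74, 10.49, 9.64 and 10.32 in day 6 cells and fell 5.28-fold (-2.40 ± 0.26, adjusted p = 1.84e-06). KLK6, a kallikrein, had 13.71, 13.35, 13.50 and 13.76 in putrescine cells, against 11.42, 11.86, 11.67 and 12.07 in day 6 cells and rose 3.53-fold without overlap (1.82 ± 0.30, adjusted p = 0.000214). Among the members that rose, BLMH (1.14 ± 0.20), ASPRV1 (0.95 ± 0.20) and CASP14 (0.78 ± 0.15) take part in filaggrin processing. The count of 7 that fell was 3 or 4 without putrescine replicate 1 or 4 or day 6 replicate 4.

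Stress keratins and antimicrobial genes also went both ways. In this list 5 of 18 tested members rose and 4 fell (median -0.22), against 12% and 9.07% of all genes. Its largest rise (1.82) was that of KLK6, which the protease list also holds, so the lists are not separate. S100A12, a calcium-binding alarm protein, had levels of 9.33, 9.35, 9.31 and 9.16 in putrescine cells, against 10.62, 11.64, 10.65 and 11.68 in day 6 cells, and KRT6C, a stress keratin, had 8.28, 8.63, 8.56 and 8.44 in putrescine cells, against 11.003, 10.60, 9.45 and 9.93 in day 6 cells. Neither gene's arrays overlapped. They fell by 1.86 ± 0.26, adjusted p = 3.44e-05, and by 1.77 ± 0.41, adjusted p = 0.00465. The ribonuclease RNASE7 was higher (1.14 ± 0.26, adjusted p = 0.00445). KRT16, another stress keratin, was at -0.66 ± 0.33, adjusted p = 0.165 by its brighter probe, while a further probe fell by 1.30 ± 0.39, adjusted p = 0.0217. Among cytokines and NF-kB targets, IL1B had 10.73, 10.51, 11.18 and 10.49 in putrescine cells, against 8.66, 8.65, 9.34 and 9.06 in day 6 cells and rose 3.48-fold (1.80 ± 0.25, adjusted p = 3.29e-05). CXCL14, a chemokine that resting epidermis makes, had 10.81, 11.67, 11.38 and 10.64 in putrescine cells, against 13.60, 12.82, 12.19 and 12.42 in day 6 cells and fell by 1.63 ± 0.36, adjusted p = 0.00311. Both sets of arrays were separate, and no other of the 12 tested cytokine genes passed. Without putrescine replicate 3 or day 6 replicate 3 or 4 the cytokine genes that rose numbered 2 to 3. With day 6 replicates 2 and 4 alone, 3 members of the stress list rose.

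Genes that present peptides to T cells were mostly lower. Of MHC class I and antigen processing genes 1 of 12 tested members rose and 8 fell (median -0.56), against 12% and 9.07% of all genes. HLA-B, a class I heavy chain, had levels of 6.73, 7.03, 7.13 and 7.24 in putrescine cells (detected on 3 of 4 arrays), 6.90, 7.48, 8.10 and 7.48 in SDSM cells and 9.24, 8.97, 8.95 and 9.02 in day 6 cells. HLA-F, a nonclassical heavy chain, had 6.38, 7.01, 6.59 and 7.02 in putrescine cells (detected on 2 of 4 arrays), against 9.20, 8.20, 8.31 and 8.52 in day 6 cells. TAPBP, the tapasin of the peptide-loading complex, had 6.75, 7.25, 7.39 and 7.11 in putrescine cells (detected on 3 of 4 arrays), against 8.61, 8.41, 7.86 and 7.93 in day 6 cells. All 3 lacked overlap. The differences were -2.01 ± 0.29, adjusted p = 5.26e-05 for HLA-B, -1.81 ± 0.28, adjusted p = 9.61e-05 for HLA-F and -1.08 ± 0.28, adjusted p = 0.00914 for TAPBP. HLA-G (-0.96 ± 0.29, detected on 2 of 4 putrescine arrays), HLA-E (-0.82 ± 0.23), the peptide transporter TAP1 (-0.72 ± 0.19) and the light chain B2M (-0.41 ± 0.12, adjusted p = 0.0219) fell by less. ERAP2, a peptide-trimming enzyme, was the member that rose (0.62 ± 0.21, adjusted p = 0.0374). HLA-G missed the threshold without putrescine replicate 1 or day 6 replicate 1 (-0.83 to -0.48, adjusted p = 0.0576 to 0.0794), and HLA-E missed the threshold without putrescine replicate 1 or day 6 replicate 1 (-0.71 to -0.61, adjusted p = 0.0596 to 0.074). TAP1 missed the threshold without day 6 replicate 1 (-0.53, adjusted p = 0.0529), and B2M missed the threshold without putrescine replicate 3 or 4 (-0.39 to -0.34, adjusted p = 0.0502 to 0.0854). ERAP2 missed the threshold without putrescine replicate 1, 2 or 4 or day 6 replicate 1 or 3 (0.49 to 0.67, adjusted p = 0.0581 to 0.144). A dimmer B2M probe fell by 0.93 ± 0.20, adjusted p = 0.00209. The count of 8 was 4 in the fit of the 2 groups alone and where all 8 arrays had to detect a probe, 5 without putrescine replicate 1, 4 without day 6 replicate 1 and 4 with day 6 replicates 2 and 4 alone.

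Of interferon-stimulated genes more fell than rose. In that list 1 of 22 tested members rose and 7 fell (median -0.54), against 12% and 9.07% of all genes. IFI27, a mitochondrial interferon-induced protein, had levels of 9.97, 10.89, 10.65 and 10.04 in putrescine cells, 10.57, 10.83, 12.10 and 10.49 in SDSM cells and 13.42, 12.77, 13.35 and 12.88 in day 6 cells. It fell 6.59-fold (-2.72 ± 0.59, adjusted p = 0.00267), and the putrescine arrays did not reach the day 6 range. BST2, the virus tether tetherin, was detected on no putrescine array and all day 6 arrays and was at least 1.78-fold lower (adjusted p = 0.0148), with 8.98, 6.79, 6.90 and 7.07 on day 6 arrays. OASL, a relative of the oligoadenylate synthetases, had 5.87, 5.96, 6.46 and 6.71 in putrescine cells (detected on 1 of 4 arrays), against 7.21, 7.56, 6.98 and 8.13 in day 6 cells and fell by 1.22 ± 0.26, adjusted p = 0.00224. IFI44, detected on 1 of 4 putrescine arrays, was at -1.17 ± 0.26, adjusted p = 0.00324, the RNA sensor IFIH1 at -1.003 ± 0.19, adjusted p = 0.000619, and SAMD9 was the member that rose (0.72 ± 0.18, adjusted p = 0.00716). ISG15 (-0.91 ± 0.34, adjusted p = 0.0624) and IFIT1 (-0.94 ± 0.36, adjusted p = 0.0661) did not pass. ISG15 passed without putrescine replicate 2 (adjusted p = 0.0475), under 75th percentile scaling (0.034) and in the fit of the 2 groups alone (0.023). IFIT1 passed without putrescine replicate 2 or day 6 replicate 4 (adjusted p = 0.0296 and 0.0434). BST2 missed the threshold without day 6 replicate 1 (-0.84, adjusted p = 0.0729). The 7 that fell were 4 without day 6 replicate 1 and 4 with day 6 replicates 2 and 4 alone.

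The promoter windows of BST2 and B2M are printed because these genes fell and both hold GAAA repeated after 2 bases of any kind, the core of an interferon response element. It was searched on both strands, and capitals mark the matches, which overlap here and so run together. Sequences are from RefSeq (GRCh38.p14), 250 bases before to 50 after a start.
BST2, chr19:17405581-17405880, minus strand: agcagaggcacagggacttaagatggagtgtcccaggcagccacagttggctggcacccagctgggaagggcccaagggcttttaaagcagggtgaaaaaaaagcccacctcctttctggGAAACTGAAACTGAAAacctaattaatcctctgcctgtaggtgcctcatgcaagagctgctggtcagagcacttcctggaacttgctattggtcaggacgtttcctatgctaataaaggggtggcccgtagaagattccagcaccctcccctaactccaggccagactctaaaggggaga
B2M, chr15:44711267-44711566, plus strand: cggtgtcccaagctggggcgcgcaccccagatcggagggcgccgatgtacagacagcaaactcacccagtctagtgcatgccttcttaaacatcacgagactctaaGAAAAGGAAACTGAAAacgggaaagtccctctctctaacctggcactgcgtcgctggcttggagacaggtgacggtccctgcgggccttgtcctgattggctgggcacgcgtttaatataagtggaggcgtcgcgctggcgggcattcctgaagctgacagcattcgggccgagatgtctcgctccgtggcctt
In B2M the matches begin 144 and 138 bases before the start, and in BST2 130 and 124 bases before it. Of the 15 MHC class I and interferon genes that fell, 13 had a window in the table and 11 of these held the letters in at least 1 window. Of the 19 tested members of these lists that did not fall, 17 had a window and 11 held it. Over all genes with a window 4.38% held it. The motif was chosen after the falls were seen, and its presence describes the sequence only.

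TXNIP, a thioredoxin-binding arrestin that limits glucose uptake, had one of the largest falls. Its levels were 7.75, 7.03, 6.86 and 6.83 in putrescine cells, 8.96, 7.88, 7.32 and 7.57 in SDSM cells and 12.94, 11.80, 9.0 and 10.81 in day 6 cells. The 4 putrescine arrays were all below the day 6 arrays, which themselves spread over almost 4 units, lowest in replicate 3. TXNIP fell 16.2-fold (-4.02 ± 0.55, adjusted p = 2.83e-05). In a list built around TXNIP and its paralog ARRDC4, 0 of 3 tested members rose and 2 fell (median -1.90). Over all genes 12% rose and 9.07% fell. The 2 falls are TXNIP and ARRDC4 themselves, so the list adds nothing to their own values. The TXNIP paralog ARRDC4, regulated with it by glucose, had 7.64, 7.48, 7.08 and 7.67 in putrescine cells, 8.69, 8.68, 8.99 and 8.79 in SDSM cells and 10.16, 9.75, 8.17 and 9.41 in day 6 cells and fell 3.74-fold (-1.90 ± 0.27, adjusted p = 4.03e-05), with the lowest day 6 value again in replicate 3. The TXNIP promoter is shown because glucose acts on it through a pair of E-box-like sites known as a carbohydrate response element. Capitals mark CACGNG repeated after 5 bases of any kind (N is any base), searched on both strands. Either end can overlap with the E-box letters CACGTG.
TXNIP, chr1:145996530-145996829, minus strand: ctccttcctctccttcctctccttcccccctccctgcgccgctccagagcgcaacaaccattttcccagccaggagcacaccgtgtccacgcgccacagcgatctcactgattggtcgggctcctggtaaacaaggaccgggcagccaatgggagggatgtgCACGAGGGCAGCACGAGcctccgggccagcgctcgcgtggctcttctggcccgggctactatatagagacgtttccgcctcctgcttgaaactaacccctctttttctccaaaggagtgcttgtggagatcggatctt
The match begins 88 bases before the start in RefSeq (GRCh38.p14). Of all promoter windows 0.057% held these letters, and the ARRDC4 window did not. No match says only that these letters are not in that window.

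Redox and mitochondrial genes changed less uniformly. Of NRF2 targets 2 of 22 tested members rose and 5 fell (median -0.23), against 12% and 9.07% of all genes. AKR1C3, an aldo-keto reductase, had 13.38, 13.01, 13.12 and 13.11 in putrescine cells, against 11.91, 11.89, 12.02 and 11.96 in day 6 cells and rose by 1.21 ± 0.27, adjusted p = 0.00285, while the pentose phosphate enzyme PGD (-1.02 ± 0.30, adjusted p = 0.0212) and AKR1B10 (-0.86 ± 0.27, adjusted p = 0.0293) were lower. PGD missed the threshold without putrescine replicate 1 or day 6 replicate 1 or 3 (-0.92 to -0.82, adjusted p = 0.0517 to 0.0905), and AKR1B10 missed the threshold without putrescine replicate 1, 2 or 4 or day 6 replicate 1 or 4 (-0.87 to -0.75, adjusted p = 0.0563 to 0.0951). Of metallothioneins, zinc-binding proteins, 1 of 5 tested members rose and 1 fell (median 0.25). MT1G had 9.82, 9.41, 9.46 and 9.79 in putrescine cells, against 7.99, 8.32, 8.69 and 8.55 in day 6 cells and rose by 1.23 ± 0.18, adjusted p = 5.04e-05, without overlap. MT1X had 11.37, 11.73, 12.61 and 11.64 in putrescine cells, against 14.62, 12.59, 14.83 and 13.33 in day 6 cells and differed by -2.004 ± 0.62, adjusted p = 0.0258, with overlap. MT1X missed the threshold without putrescine replicate 1, 2 or 4 or day 6 replicate 1 or 3 (-1.97 to -1.68, adjusted p = 0.052 to 0.0905). In oxidative phosphorylation 1 of 61 tested members rose and 9 fell (median -0.16), with subunits NDUFA3 (-1.25 ± 0.42, adjusted p = 0.0385) and NDUFB7 (-1.23 ± 0.37, adjusted p = 0.0217) among the falls. Their day 6 arrays overlapped with putrescine arrays and were highest in replicates 1 and 3. NDUFA3 missed the threshold without putrescine replicate 1, 2 or 4 or day 6 replicate 1 or 3 (-1.23 to -0.93, adjusted p = 0.0824 to 0.132), and NDUFB7 missed the threshold without putrescine replicate 1, 2 or 4 or day 6 replicate 1 or 3 (-1.17 to -0.98, adjusted p = 0.0569 to 0.0721). The 9 that fell ranged from 2 to 15 when 1 array was left out (2 to 4 without putrescine replicate 1, 2 or 4 or day 6 replicate 1 or 3, and 15 without day 6 replicate 2). They were 19 with the replicate block, 2 in the table deposited as non-normalized and 0 with day 6 replicates 2 and 4 alone. The 5 NRF2 targets that fell were 2 or 3 without putrescine replicate 1, 2 or 4 or day 6 replicate 1 or 4.

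Cell cycle genes showed isolated rises. Of DNA replication and G1/S genes 3 of 21 tested members rose and 0 fell (median 0.23), and of mitosis genes 2 of 18 tested members rose and 0 fell (median 0.29). Both shares of rises lay near the 12% of all genes that rose, while 9.07% of all genes fell. MKI67, the usual marker of dividing cells, did not reach the detection filter. GMNN, the licensing inhibitor geminin, had 8.46, 8.59, 8.53 and 8.26 in putrescine cells, against 7.26, 7.62, 7.43 and 7.05 in day 6 cells and rose by 1.12 ± 0.22, adjusted p = 0.00117. E2F2, a transcription factor of the G1/S step, had 8.12, 8.49, 8.17 and 8.10 in putrescine cells, against 6.96, 7.19, 7.45 and 7.12 in day 6 cells and rose by 1.04 ± 0.20, adjusted p = 0.000856. CDC20, an activator of the anaphase-promoting complex, had 9.01, 8.84, 8.64 and 8.88 in putrescine cells, against 7.995, 8.08, 7.29 and 8.08 in day 6 cells and rose by 0.98 ± 0.27, adjusted p = 0.0139. Those 3 genes had no overlap. Outside both lists, CCNA1, a cyclin best known from germ cells, had 10.73, 10.62, 11.14 and 10.66 in putrescine cells, 7.97, 8.35, 8.43 and 8.23 in SDSM cells and 7.51, 8.07, 9.13 and 8.74 in day 6 cells and rose 5.38-fold (2.43 ± 0.28, adjusted p = 3.77e-06), above every SDSM and day 6 array. The 2 mitosis genes that rose became 1 whichever single array of either group was left out.

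Growth factor signalling was represented by feedback genes. Of EGF receptor ligands and feedback genes 4 of 16 tested members rose and 0 fell (median 0.15), and of immediate early genes 3 of 21 tested members rose and 0 fell (median 0.29). The shares of all genes were 12% and 9.07%, and the immediate early rises lay near the first. IER3, a short-lived stress-response product, had 13.997, 13.56, 14.02 and 14.23 in putrescine cells, against 11.84, 11.76, 12.28 and 12.94 in day 6 cells and rose 3.36-fold (1.75 ± 0.26, adjusted p = 7.74e-05). DUSP6, the ERK phosphatase, had 11.31, 10.91, 11.06 and 11.27 in putrescine cells, against 9.51, 10.24, 10.36 and 10.55 in day 6 cells and rose by 0.97 ± 0.23, adjusted p = 0.0056. Both had separate arrays. CCN2, a matricellular protein, was at 1.11 ± 0.31, adjusted p = 0.0162, and SPRED1, another brake on ERK signalling, at 0.66 ± 0.19, adjusted p = 0.0155. CCN2 missed the threshold without putrescine replicate 1 or day 6 replicate 1 (1.01 to 1.05, adjusted p = 0.0504 to 0.0549), and SPRED1 missed the threshold without day 6 replicate 1 (0.42, adjusted p = 0.0757). The 3 immediate early genes that rose became 1 without putrescine replicate 1 or day 6 replicate 1. The 4 EGF receptor list genes that rose became 2 under 75th percentile scaling, in the fit of the 2 groups alone and in the table deposited as non-normalized. With day 6 replicates 2 and 4 alone 1 EGF receptor feedback gene rose and 1 fell, with a list median of -0.055. Without day 6 replicate 3 it was 2 that fell.

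The remaining lists held few calls, to be read beside the 12% of all genes that rose and the 9.07% that fell. Rises and falls were 2 and 5 of 25 barrier lipid genes, 2 and 0 of 23 differentiation transcription factor genes and 1 and 1 of 17 heat shock genes. There were 3 and 0 of 20 p53 target genes, 1 and 3 of 18 cholesterol synthesis genes and 0 and 1 of 13 fatty acid synthesis genes. Counts were 4 and 1 of 67 cytosolic ribosomal protein genes, 1 and 4 of 34 autophagy and lysosome genes and 4 and 1 of 20 tubulin and actin cytoskeleton genes. The largest rise in the last list (1.11) was that of the matricellular CCN2, which the immediate early list also holds, so lists can share members. LIPK, an epidermal lipase, had 7.61, 7.58, 7.78 and 7.59 in putrescine cells, against 6.15, 6.35, 6.84 and 6.34 in day 6 cells (detected on 1 of 4 arrays) and rose by 1.22 ± 0.17, adjusted p = 4.05e-05. CEBPD, a transcription factor of stressed and differentiating cells, had 12.74, 12.28, 12.35 and 12.82 in putrescine cells, against 11.21, 11.81, 11.67 and 11.90 in day 6 cells and rose by 0.90 ± 0.22, adjusted p = 0.00656. The arrays of both were separate. RPL28, a ribosomal protein, rose by 1.46 ± 0.26, adjusted p = 0.000468, whereas the median of its list was -0.06. ZMAT3, counted among the p53 rises, rose by its brightest probe (0.61 ± 0.19, adjusted p = 0.0256). Another ZMAT3 probe fell (-0.60 ± 0.18, adjusted p = 0.0202), and a further one was at -0.37 ± 0.15, adjusted p = 0.0927. The brightest probe missed the threshold without putrescine replicate 4 or day 6 replicate 1 or 3 (0.50 to 0.53, adjusted p = 0.0725 to 0.1). WIPI2, an autophagosome protein detected on 3 of 4 day 6 arrays, rose by 1.03 ± 0.22, adjusted p = 0.00197, and tropomyosin TPM2 by 0.89 ± 0.20, adjusted p = 0.00296. Of these counts, leaving out 1 array moved the ribosomal falls to between 0 and 6, the tubulin and actin rises to 1 or 2, the cholesterol falls to 0 or 1 and the barrier lipid falls to 2 or 3. Ribosomal falls numbered 6 under 75th percentile scaling and 8 with the replicate block. Leaving out day 6 replicate 2 gave the 6 ribosomal falls above, and putrescine replicate 1 and day 6 replicate 1 were among the arrays behind each of the other shifts. Elsewhere, list counts of 0 to 2 moved by 1 or 2 with single arrays left out.

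Several of the largest changes lay outside the lists. DAPL1, a small protein of differentiating epithelia, was detected on all day 6 arrays and no putrescine array and was at least 12.8-fold lower (adjusted p = 2.31e-08). On day 6 arrays it had 11.14, 10.09, 10.14 and 9.76. MMP9, a gelatinase, had 5.69, 6.96, 5.75 and 6.36 in putrescine cells (detected on 1 of 4 arrays), against 8.76, 9.35, 7.52 and 9.14 in day 6 cells (-2.50 ± 0.51, adjusted p = 0.00148). PIK3IP1, an inhibitor of PI3 kinase, had 6.72, 7.13, 6.88 and 6.78 in putrescine cells (detected on 3 of 4 arrays), against 10.18, 9.43, 8.44 and 9.29 in day 6 cells (-2.46 ± 0.32, adjusted p = 1.32e-05). HSPB3, a small heat shock protein, LPAR6, a lysophosphatidic acid receptor needed for hair growth, and GPR15LG, a skin chemoattractant, differed by -2.21, -2.12 and -2.07. None of these overlapped.

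At the other end, NPW, the precursor of neuropeptide W, and KCTD12, a subunit of GABA-B receptors, were detected on all putrescine arrays and on no day 6 array. NPW was at least 4.29-fold higher (adjusted p = 8.08e-05) and KCTD12 at least 4.68-fold higher (adjusted p = 8.25e-07). Both entered the test only through putrescine arrays. NT5E, which makes adenosine outside the cell, had 9.52, 8.78, 9.03 and 9.21 in putrescine cells, against 6.31, 6.51, 7.24 and 6.94 in day 6 cells (detected on 2 of 4 arrays) and rose 5.22-fold (2.38 ± 0.22, adjusted p = 1.59e-07). DIO2, the deiodinase that activates thyroid hormone, had 10.54, 10.01, 10.39 and 10.35 in putrescine cells, 12.15, 11.17, 11.12 and 12.15 in SDSM cells and 7.42, 8.23, 8.36 and 8.72 in day 6 cells and rose by 2.14 ± 0.27, adjusted p = 9.87e-06. The hydrolase CMBL (2.22 ± 0.18, adjusted p = 2.31e-08, detected on 2 of 4 day 6 arrays), the Ran exchange factor RCC1 (2.10 ± 0.24, adjusted p = 3.17e-06), and PSG4 (2.40 ± 0.37) and PSG7 (2.43 ± 0.31, detected on 2 of 4 day 6 arrays), pregnancy-specific glycoproteins, completed the 12 largest rises. The arrays of the groups did not overlap in any of them. A further PSG4 probe was called and another was not (adjusted p = 0.729), with means of 7.49 in putrescine cells and 7.26 in day 6 cells.

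Putrescine was then set against SDSM at the same labelled dose and time, compounds that differ by the aminopropyl groups that spermidine and spermine carry. In the same fit 1318 probes were higher (11.3%) and 939 lower (8.04%) in putrescine than in SDSM cells. Under 75th percentile scaling 712 were higher and 966 lower, 42.4% of calls being higher against 58.4% above. The filter used putrescine and day 6 arrays alone. A probe detected only in putrescine cells could thus enter the test, while one detected only in SDSM cells could not. With a filter on 4 of all 24 arrays 1353 probes were higher and 1032 lower. ODC1 was lower with putrescine (-1.24 ± 0.19, adjusted p = 0.00011), as was AZIN1 (-1.04 ± 0.14, adjusted p = 3.48e-05). AMD1 was higher (0.94 ± 0.32, adjusted p = 0.0412). SAT1 differed by 0.15 ± 0.13, adjusted p = 0.45, with a 95% interval from -0.11 to 0.42, and OAZ1 by -0.10 ± 0.13, adjusted p = 0.634, with an interval from -0.36 to 0.16, so neither difference was resolved. Against day 6 cells, SDSM differed by -0.27 for ODC1 (adjusted p = 0.308), by -0.89 for AZIN1 (adjusted p = 7.49e-05) and by 0.06 for AMD1 (adjusted p = 0.904). Against SDSM, AMD1 missed the threshold without putrescine replicate 1, 2, 3 or 4 or SDSM replicate 1, 2 or 3 (0.86 to 0.99, adjusted p = 0.0569 to 0.0963).

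Among the probes tested, the largest differences between the compounds were of several kinds. Some genes passed against day 6 cells with putrescine and not with SDSM, such as CCNA1 (2.54 ± 0.28, adjusted p = 3.02e-06), CMBL (1.78 ± 0.18, adjusted p = 1.3e-06), SPINK6 (-2.97 ± 0.34, adjusted p = 3.63e-06) and SPINK7 (-2.38 ± 0.26, adjusted p = 2.96e-06). SDSM minus day 6 was -0.12 for CCNA1, 0.44 for CMBL, -0.37 for SPINK6 and -0.02 for SPINK7, with adjusted p = 0.0636 or higher. Others stood apart in SDSM cells. WNT10A, a secreted signal of skin appendages, had 8.98, 8.86, 8.73 and 8.89 in putrescine cells, 6.97, 7.73, 6.67 and 6.74 in SDSM cells and 9.28, 8.81, 8.48 and 8.93 in day 6 cells, the SDSM arrays being the low ones (1.84 ± 0.31, adjusted p = 0.0003). LCE3A had 10.95, 10.14, 10.48 and 10.30 in putrescine cells, 12.91, 12.90, 12.67 and 12.87 in SDSM cells and 9.05, 10.64, 9.42 and 11.30 in day 6 cells, the SDSM arrays being the high ones (-2.37 ± 0.30, adjusted p = 1.36e-05). SPINK1, a trypsin inhibitor, and ANKRD1, a nuclear ankyrin repeat protein, were likewise highest in SDSM cells, at -2.71 ± 0.45, adjusted p = 0.000208 for SPINK1 and -2.24 ± 0.28, adjusted p = 1.06e-05 for ANKRD1. TCN1, a vitamin B12 carrier, had 8.08, 8.32, 8.11 and 7.37 in putrescine cells, 5.63, 5.93, 6.17 and 5.82 in SDSM cells and 6.37, 7.05, 7.08 and 7.17 in day 6 cells (detected on 3 of 4 arrays) (2.08 ± 0.23, adjusted p = 2.96e-06). Its putrescine arrays were highest and its SDSM arrays lowest, with day 6 arrays between them. LRRC20 had 8.88, 8.93, 8.51 and 8.48 in putrescine cells, 11.20, 11.08, 11.32 and 10.94 in SDSM cells and 9.92, 10.64, 9.93 and 10.91 in day 6 cells (-2.44 ± 0.19, adjusted p = 3.78e-08), lowest with putrescine and highest with SDSM. GPX8, a peroxidase of the endoplasmic reticulum, differed by 1.78 ± 0.24, adjusted p = 2.72e-05, and STC2 by 2.01 ± 0.45, adjusted p = 0.00271.

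By list, amino acid response and mitosis genes held more members higher with putrescine than with SDSM, and envelope and protease genes more that were lower. Against day 6 cells, rises and falls with putrescine were 13 and 1 of 35 amino acid response and 2 and 0 of 18 mitosis genes. They were 18 and 3 of 47 envelope and 7 and 7 of 25 protease genes. List counts of SDSM against day 6 cells were not made, so the counts below do not say which compound moved a list. In the ATF4 list 12 of 35 members were higher and 0 lower in putrescine than in SDSM cells, against 12.9% and 8.66% of all genes. In the cornified envelope list 4 of 47 members were higher and 15 lower, and among proteases and inhibitors 0 of 25 members were higher and 11 lower. LCE1B and LCE1C did not pass, with intervals for putrescine minus SDSM from -0.59 to 0.50 and from -0.55 to 0.47. For interferon genes 8 of 22 members were higher and 1 lower, and for MHC class I genes 3 of 12 members were higher and 0 lower. HLA-B was at -0.46 ± 0.29, adjusted p = 0.306, and IFI27 at -0.61 ± 0.59, adjusted p = 0.526. In mitosis 9 of 18 members were higher and 1 lower, and in oxidative phosphorylation 16 of 61 members were higher and 0 lower. When 1 array was left out, the 15 envelope genes that were lower became 9 without putrescine replicate 2 or SDSM replicate 4. They were 9 without background correction, 8 without a detection filter and 2 in the table deposited as non-normalized, which holds many envelope genes at its floor. The 4 that were higher became 0 to 2 whichever single array of either group was left out. The 8 interferon genes became 4 or 5 without putrescine replicate 2 or 3 or SDSM replicate 3 or 4, and the 16 oxidative phosphorylation genes 9 or 10 without putrescine replicate 1 or 3 or SDSM replicate 2 or 3. Under 75th percentile scaling 4 interferon, 4 oxidative phosphorylation, 1 MHC class I and 1 envelope gene were higher. The 12 ATF4 members were 6 in the table deposited as non-normalized and 18 with the replicate number as a block.

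**Figure D5:**
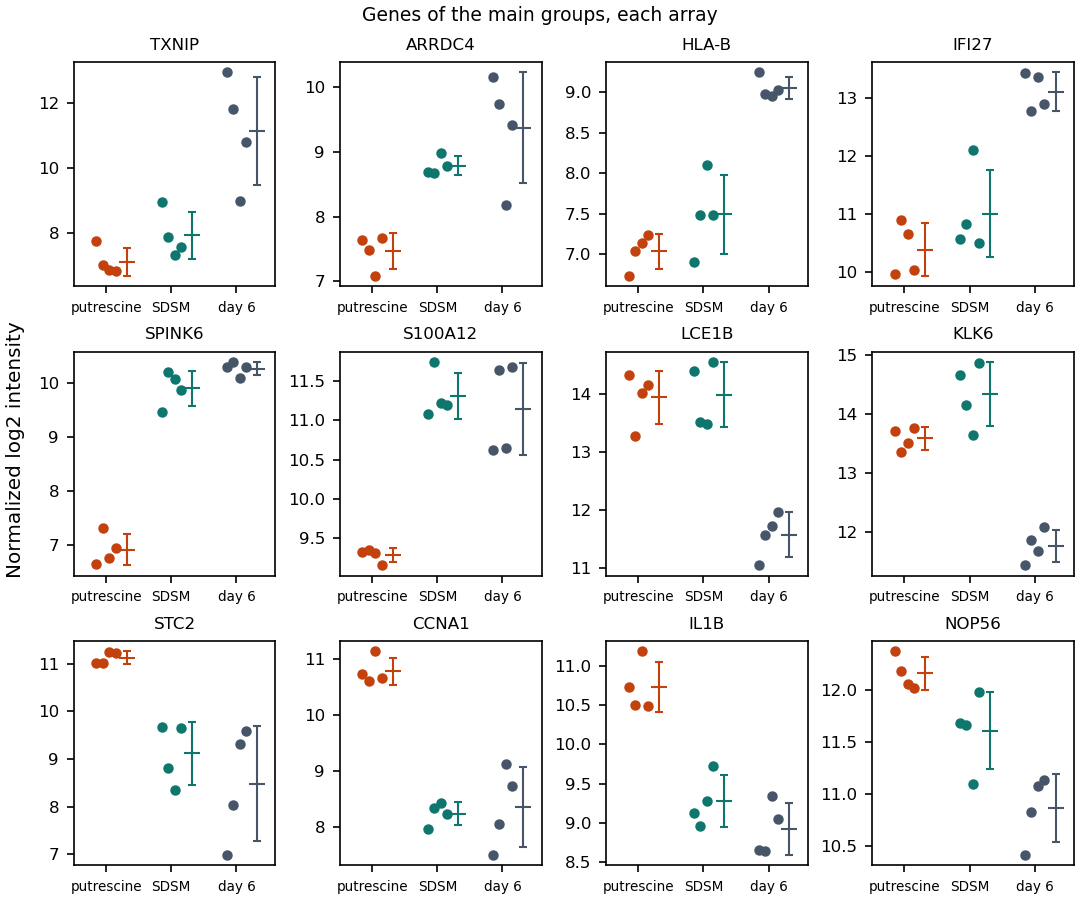
Points are single arrays (normalized log2 intensity, y axis) of putrescine, SDSM and day 6 cells, with mean and SD of 4 arrays; each panel has its own y range. TXNIP, HLA-B and IFI27 are low in both polyamine groups, SPINK6 and S100A12 are lowest with putrescine, LCE1B and KLK6 are high in both, and STC2, CCNA1 and IL1B are highest with putrescine.

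Markers of other skin cell types were listed as a check on the keratinocyte cultures. Of 10 melanocyte markers only PMEL was tested, at 8.98, 8.56, 8.81 and 8.57 in putrescine cells, against 8.03, 8.20, 8.04 and 7.90 in day 6 cells (0.69 ± 0.21, adjusted p = 0.0216). Of 10 fibroblast markers FAP and COL1A1 were tested, FAP at 8.15, 8.01, 8.13 and 7.87 in putrescine cells, against 6.65, 6.96, 7.12 and 7.197 in day 6 cells (1.06 ± 0.17, adjusted p = 0.000172) and COL1A1, which did not pass. Of 12 immune markers 4 were tested, of which CD14, the lipopolysaccharide coreceptor that keratinocytes can express, had 8.63, 8.23, 8.37 and 8.83 in putrescine cells, against 7.12, 7.08, 7.36 and 6.90 in day 6 cells and rose by 1.40 ± 0.31, adjusted p = 0.00302. CD207, CD68 and HLA-DRA did not pass, and none of 7 endothelial markers was tested. PMEL missed the threshold without putrescine replicate 1 or 3 (0.60 to 0.66, adjusted p = 0.0501 to 0.0778). The other listed markers of these cell types were not detected on enough arrays to enter the test. All cultures are of 1 cell line, so these rises are not read as other cell types. A different share of cells with a marker and a different amount of its RNA in each cell cannot be told apart. The part of these markers in the results above was not tested.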

How the data were processed

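Total RNA of 24 samples (6 groups of 4) was hybridised to Illumina HumanHT-12 arrays, here 12 of them in putrescine, SDSM and day 6 cells. The deposited values were summary bead intensities with a detection p-value for each probe, exported by the authors from GenomeStudio, per the submitters' processing notes and the file headers. The matrix of signals was used because the table deposited as non-normalized holds a floor of 40. Of the 412 tested probes at that floor on all 8 arrays, 246 were detected on all 8. Signals were background-corrected and quantile-normalized with neqc (offset 16), put on the log2 scale and fitted with limma 3.58.1 in R 4.3.3 over all 24 arrays, with no covariate. Probes with a detection p-value under 0.01 on 4 of 8 arrays were kept, and p-values were adjusted by Benjamini-Hochberg over all 11682. A gene is given by its brightest kept probe. Of 1457 genes with several kept probes, 3 had probes called in opposite directions. Of 47304 probes, 30102 carry 1 symbol, 8 several and 17194 none. Where no array of a group detected a probe, its fold is a lower limit, set with each array's lowest detected signal. Such a probe passed the filter only through the other group. Named genes were the polyamine core, reference keratinocyte genes, the 12 largest non-overlapping changes each way, up to 3 called members of each list and the 6 largest differences each way against SDSM. Further list members were named after their values were seen. The members and the 40 lists were chosen with earlier results of these data known. Deviations from the group means correlated at r = 0.37, 0.33, 0.34 and 0.22 between same-numbered putrescine and SDSM arrays. Because deviations cancel out within a group, positive values for the same numbers leave differently numbered arrays with a negative average covariance. Same-numbered arrays thus varied together more than differently numbered ones on average. The labels do not give the numbers as pairs, so whether they are is not known. The fits above took no pairs. With the replicate number as a block, 1616 probes were higher and 1169 lower in putrescine than in SDSM cells. Alternatives changed the background correction, scaling, filter, probe choice, table, block, variance model and arrays.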

Additional observations from a re-analysis of the deposited data

Results flagged for a closer look

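In 24 of 342 groups of 4 arrays (7.02%) among the named genes, 1 array stood far from the other 3, its gap to the nearest array being a larger share of the whole range than the 95% critical value of Dixon's test. Chance sets apart about 1 in 20 such groups. The number after each gene is the gap as a share of the range. Putrescine replicate 1 was high in TGM5 (level 10.90, next 10.72, 0.901). Putrescine replicate 2 was low in MAT2A (level 11.82, next 12.42, 0.929), LCE1C (level 11.35, next 12.30, 0.871), CCN2 (level 8.26, next 8.84, 0.852), RPL28 (level 8.88, next 9.26, 0.851), LCE2D (level 13.90, next 14.46, 0.892), LCE1D (level 8.69, next 9.75, 0.871) and LCE3C (level 10.51, next 11.47, 0.875). Putrescine replicate 3 was high in LIPK (level 7.78, next 7.61, 0.857) and NDUFB7 (level 9.07, next 8.20, 0.886). Putrescine replicate 4 was low in IFI44 (level 6.19, next 6.57, 0.882). Putrescine replicate 4 was high in SLC1A5 (level 10.42, next 10.26, 0.901). Day 6 replicate 1 was low in TCN1 (level 6.37, next 7.05, 0.850), DHPS (level 10.13, next 10.88, 0.910), SPRED1 (level 7.60, next 8.54, 0.965) and SLC1A4 (level 6.201, next 6.78, 0.935). Day 6 replicate 1 was high in BST2 (level 8.98, next 7.07, 0.870). Day 6 replicate 2 was low in PSPH (level 5.47, next 5.82, 0.897). Day 6 replicate 3 was low in FLG (level 13.59, next 14.48, 0.888), CCN1 (level 9.26, next 10.25, 0.841), CDC20 (level 7.29, next 7.995, 0.887) and RPL37 (level 8.28, next 8.38, 0.872). Day 6 replicate 3 was high in PSAT1 (level 11.82, next 10.79, 0.846). Day 6 replicate 4 was high in SLC2A3 (level 12.58, next 12.17, 0.839). Putrescine replicate 2 gave most of the low values among putrescine arrays.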

How the results depend on the processing

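Of 171 named genes, 141 passed the test against day 6 cells. Of these, 82 passed under each of the 19 alternatives that gave them a value, 59 missed the threshold in at least 1, and 0 changed sign. Of the 30 that did not pass, 12 passed under at least 1 alternative. Against day 6 cells, probes higher and lower numbered 639 and 1536 under 75th percentile scaling, 691 and 642 in the table deposited as non-normalized, and 700 and 567 with day 6 replicates 2 and 4 alone, a setting added after seeing the data. Leaving out 1 array gave 842 to 1337 higher and 530 to 961 lower. Against SDSM cells they were 712 and 966 under 75th percentile scaling, 736 and 738 in the non-normalized table, and 950 to 1201 and 632 to 839 with 1 array left out. The causes were not tested. Deviations of same-numbered putrescine and day 6 arrays correlated at r = -0.20, 0.32, 0.52 and 0.34, and whether these are pairs is likewise not known. With the replicate block 1660 probes were higher and 1402 lower. The block moved neither total past 1.5 times and lost no named call. It brought CHAC1, IFIT1, LORICRIN, PSAT1 and SAT1 past the threshold (adjusted p = 0.0439 to 0.0474). Against SDSM cells the block changed the call of 1 of 26 genes, SMOX (adjusted p = 0.0362). Of genes called with every single array left out, CDC20, CEBPD, DUSP6, RNASE7, SLC1A5, TAPBP and XPC missed the threshold or moved by over 1.5 times with day 6 replicates 2 and 4 alone, as did ALDH18A1, CDC20, CRYAB, LYAR, MYC, SAMD9 and XPC in the non-normalized table, PSPH without background correction, CDC20 and TAGLN without a detection filter, and STC2 against SDSM in the non-normalized table. Genes that changed sign without having passed were DHPS (-0.0049) and SMS (-0.046) under 75th percentile scaling, DHPS (-0.0012) and SMS (-0.066) in the non-normalized table and DHPS (-0.050), KRT14 (0.16), LCE3A (-0.50) and WNT10A (0.00082) with day 6 replicates 2 and 4 alone. With 1 array left out, log2 differences of genes that changed sign ran DHPS -0.070 to 0.20, KRT14 -0.28 to 0.084, OAZ2 -0.34 to 0.29, SMOX -0.29 to 0.018, SRM -0.15 to 0.042 and WNT10A -0.14 to 0.13 against day 6 cells, and LCE1B -0.21 to 0.17, LCE1C -0.22 to 0.22 and SMS -0.27 to 0.018 against SDSM cells. SAT1 against SDSM was at -0.070 under 75th percentile scaling. In the non-normalized table, 33 named genes sat at its floor of 40 on every array and gave no value. The chip as a block was not run because the headers name no chip. Probes near background, detected on some arrays of a group, limit what dim genes can show.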
